A study of Mus musculus with 19 samples.

Results

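The endoplasmic reticulum (ER) stress response was read in epididymal white adipose tissue (eWAT), the visceral fat depot beside the epididymis, from male C57Bl6/J mice kept for 17 weeks on 4 diets. A set of 35 genes of this response was chosen by gene symbol from the 24237 genes of the expression table, and all 35 were present. The mice were 9 to 10 weeks old at the start. Each animal received a low-fat diet (LFD, 10% of energy from palm oil) or a high-fat diet (HFD, 60% of energy from palm oil), combined with a normal Mg2+ content (NormMg, 0.21% by weight of magnesium oxide) or a low one (LowMg, 0.03%). The groups comprised 4 NormMg-LFD, 5 LowMg-LFD, 5 NormMg-HFD and 5 LowMg-HFD mice, with 1 library per mouse, taken from groups of 12. All values are mRNA levels of whole tissue in FPKM, fragment counts scaled for gene length and library size. In whole tissue, fewer cells of a type and less RNA per cell cannot be told apart.

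Secreted and membrane proteins are folded in the ER, and unfolded protein there is sensed by IRE1 (gene Ern1), PERK (Eif2ak3) and ATF6 (Atf6). IRE1 splices the Xbp1 mRNA into the form that encodes an active transcription factor, ATF6 is cut to release one, and PERK slows translation while favouring that of Atf4. Together these factors raise ER chaperones, disulfide isomerases and the ER-associated degradation machinery, and the ATF4 arm raises amino acid synthesis genes and the factor CHOP (Ddit3). Adipocytes secrete adipokines in bulk, and tissue macrophages, B cells and fibroblasts use the same folding machinery. Gene-level FPKM values add the spliced and unspliced Xbp1 forms, and they do not show protein cleavage or phosphorylation.

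The known DNA sites of these factors were looked for in the promoters. RefSeq windows of 250 bases before to 50 bases after the start site (build GRCm38.p6) were matched by symbol for 31 of the 35 genes, and Hyou1, Manf, Atf6 and Derl1 had none. The ER stress element (ERSE) is CCAAT, then 9 bases, then CCACG, read on both strands. It was present in the windows of 9 of the 31 genes, against 0.119% of all 32851 windows. The 10 matches are shown because they carry the shared ATF6-type site of the chaperone genes, written 5′ to 3′ on the strand of the match, with the fixed letters in capitals.
Hspa5 chr2:34772025-34772043: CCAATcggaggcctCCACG
Hsp90b1 chr10:86705638-86705656: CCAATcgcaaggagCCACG
Hsp90b1 chr10:86705533-86705551, opposite strand to the gene: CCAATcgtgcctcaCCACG
Calr chr8:84847075-84847093, opposite strand to the gene: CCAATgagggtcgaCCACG
Canx chr11:50325800-50325818: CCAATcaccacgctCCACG
Pdia6 chr12:17266491-17266509: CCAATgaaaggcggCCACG
Dnajc3 chr14:118937827-118937845: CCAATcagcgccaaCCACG
Creld2 chr15:88819520-88819538, opposite strand to the gene: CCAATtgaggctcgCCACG
Syvn1 chr19:6046532-6046550: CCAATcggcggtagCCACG
Derl3 chr10:75893242-75893260, opposite strand to the gene: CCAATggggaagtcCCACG

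Hsp90b1 was the only one of the 31 genes with a pair of ERSE matches. The related ERSE-II (ATTGG, then 1 base, then CCACG) was found in 2 of the 31 genes, against 0.0365% of all windows. In Herpud1 it lay 52 to 42 bases before the start site, and in Dnajb11 8 to 18 bases after it. The shorter CCACG shared by both elements was in 25 of the 31 genes and in 32.8% of all windows, and the XBP1-type core TGACGTGG was in 0 of the 31 genes and in 0.676% of all windows. The C/EBP-ATF element TGATGNAAN, the known site of ATF4 with a C/EBP partner, was in 5 of the 31 genes (Asns, Atf3, Chac1, Herpud1 and Trib3) and in 3.95% of all windows. A match describes the letters only and says nothing about binding in these mice.

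The 250 bases before the start site are given for 3 chaperone genes with ERSE and for 2 genes of the ATF4 arm, Asns and Atf3. These 2 hold the C/EBP-ATF element and moved in opposite directions on the HFD. All are written on the strand of the gene, with the fixed letters of the matches in capitals. In Calr, in Atf3 and in the second Hsp90b1 match the capitals read as the reverse complement of the element.
Hspa5, chr2:34771840-34772089, plus strand: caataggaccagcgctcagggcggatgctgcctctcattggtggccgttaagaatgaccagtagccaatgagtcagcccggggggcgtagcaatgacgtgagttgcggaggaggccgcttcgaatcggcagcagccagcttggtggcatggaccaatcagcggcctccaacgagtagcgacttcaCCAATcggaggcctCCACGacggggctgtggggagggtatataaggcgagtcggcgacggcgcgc
Hsp90b1, chr10:86705445-86705694, minus strand: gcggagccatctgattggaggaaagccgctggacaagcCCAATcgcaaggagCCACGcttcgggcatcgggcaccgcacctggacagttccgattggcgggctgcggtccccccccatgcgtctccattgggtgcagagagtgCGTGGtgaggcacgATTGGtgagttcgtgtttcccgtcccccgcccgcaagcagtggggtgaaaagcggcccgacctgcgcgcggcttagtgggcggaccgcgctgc
Calr, chr8:84846932-84847181, minus strand: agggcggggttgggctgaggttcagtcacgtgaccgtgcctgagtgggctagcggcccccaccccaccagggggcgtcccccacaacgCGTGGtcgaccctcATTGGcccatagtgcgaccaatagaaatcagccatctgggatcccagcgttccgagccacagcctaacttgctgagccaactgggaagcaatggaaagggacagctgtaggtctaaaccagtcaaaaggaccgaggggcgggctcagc
Asns, chr6:7693210-7693459, minus strand: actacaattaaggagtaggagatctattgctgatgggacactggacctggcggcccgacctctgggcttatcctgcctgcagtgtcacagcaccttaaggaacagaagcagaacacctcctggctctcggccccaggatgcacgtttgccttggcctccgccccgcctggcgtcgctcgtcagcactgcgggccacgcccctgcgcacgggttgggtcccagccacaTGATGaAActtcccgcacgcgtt
Atf3, chr1:191183334-191183583, minus strand: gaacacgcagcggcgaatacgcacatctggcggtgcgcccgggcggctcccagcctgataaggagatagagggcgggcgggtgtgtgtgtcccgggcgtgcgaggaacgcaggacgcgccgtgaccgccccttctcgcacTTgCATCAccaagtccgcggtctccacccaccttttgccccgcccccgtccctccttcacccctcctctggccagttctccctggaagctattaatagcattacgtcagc

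Markers of other tissues stood out in 6 libraries, of which 5 were from LFD-fed mice. The library labelled NormMg-LFD replicate 3 held exocrine pancreas mRNA: 15 pancreas genes summed to 2031 FPKM, with 0 of them at 0, against 13.2 to 52.9 FPKM in the other 18 libraries. The study's methods report pancreatic contamination in a LowMg-HFD sample, which was left out there; in these files the LowMg-HFD libraries summed to 21.5 to 44.8 FPKM, so the label and the methods differ, and an exchange of labels was not tested. By diet markers the library labelled NormMg-LFD replicate 3 was like the other LFD mice, with leptin (Lep) at 313 FPKM and the macrophage gene Trem2 at 7.69 FPKM, against 138 to 644 and 3.19 to 11.96 FPKM in the LFD groups and 663 to 1285 and 21.1 to 257 FPKM in the HFD groups. The library labelled LowMg-HFD replicate 4 was within the HFD ranges, at 1072 FPKM for Lep and 21.7 FPKM for Trem2. These values bear on the fat content of the diet and not on its Mg2+ content. The library labelled LowMg-HFD replicate 4 held spermatid mRNA, with 3524 FPKM summed over 8 genes chosen after their values were seen (Prm1, Prm2, Tnp1, Tnp2, Smcp, Odf1, Akap4 and Crisp2), and it is called the spermatid library below. The same genes summed to 748 FPKM in NormMg-LFD replicate 5, 311 in NormMg-LFD replicate 4 and 182 in LowMg-LFD replicate 1, against 3.18 to 50.6 FPKM in the other 15 libraries. The spermatid library also had 15729 genes at or above 1 FPKM, against 12986 to 14971 in the others. The library labelled LowMg-LFD replicate 4 held epididymis mRNA, with 131 FPKM over 6 genes against at most 3.81. All 19 libraries were kept, and results are also given without the 4 with the most spermatid mRNA and without all 6. Leaving out all 6 leaves 1 NormMg-LFD mouse that is assumed to vary like the other groups. Sequencing depth was even, at 12986441 to 13027028 reads per library, of which 86.12% to 90.41% mapped.

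The tissue label was checked against defining markers. The 9 adipocyte markers were at a mean log2(FPKM + 1) of 10.24 ± 0.17 in NormMg-LFD, 10.38 ± 0.06 in LowMg-LFD, 9.61 ± 0.21 in NormMg-HFD and 10.20 ± 0.14 in LowMg-HFD mice (SD, n = 4, 5, 5 and 5), with 0 of them at 0 in any library. Markers of other cells moved with diet. The 9 macrophage markers were at 4.76 ± 0.17, 4.78 ± 0.43, 7.06 ± 0.29 and 5.84 ± 0.64 in the same order, with summed levels of 486 to 599.7, 370.1 to 710.5, 2084 to 3273 and 614 to 1905 FPKM and 0 markers at 0 in any mouse. The 6 fibroblast markers were at 6.60 ± 0.15, 6.43 ± 0.27, 7.53 ± 0.20 and 6.76 ± 0.11. The 9 B and plasma cell markers stayed low, at 1.80 ± 0.27, 1.48 ± 0.19, 2.00 ± 0.64 and 1.77 ± 0.31. The part of these cells in the results below was not tested.

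**Figure D1:**
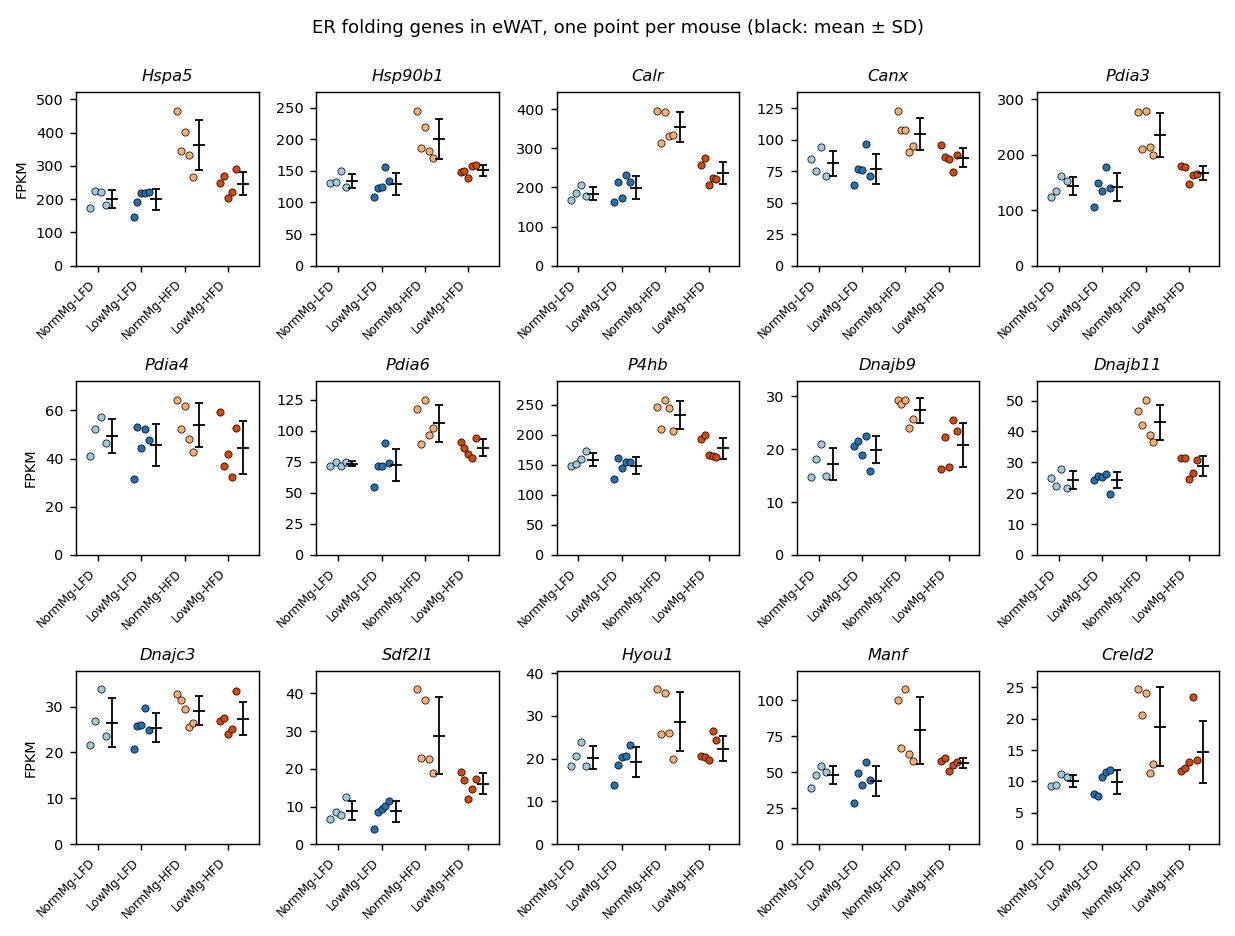
FPKM (linear axes from 0) of the 15 ER folding genes in eWAT, with 1 point per mouse in NormMg-LFD (n = 4), LowMg-LFD, NormMg-HFD and LowMg-HFD (n = 5 each) and the mean ± SD in black beside each group. In most panels the NormMg-HFD mice sit highest and the LowMg-HFD mice between them and the LFD groups, whereas Pdia4 and Dnajc3 overlap throughout.

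The first comparison asked what the HFD did to the ER stress genes at normal Mg2+. Of the 30 members that could be tested, 20 rose and 2 fell in NormMg-HFD compared with NormMg-LFD mice (limma, adjusted p under 0.05). Among all 8336 genes tested, 24.6% rose and 12.8% fell. The median log2 fold change of the 30 members was 0.48, beside 0.07 for all genes tested. The split of all genes depended on scaling. With median centring of the libraries 19% rose and 18.9% fell, and with quantile normalization 18% and 20.3%, while 18 members rose and 2 fell with either. In 17 of the 30 every NormMg-HFD mouse lay above every NormMg-LFD mouse, and in 2 every one lay below, against 21.5% and 10.6% of all genes tested. Ern1, Trib3, Chac1, Ppp1r15a and Derl3 fell under the expression filter (a group mean over 8 FPKM, with at least 4 mice of that group over 8) and were not tested. Of the 30 that passed, 27 did so in all 4 groups. Atf3 passed only through the HFD groups, Eif2ak3 only through NormMg-HFD, and Sdf2l1 in every group but NormMg-LFD, so each could be tested because of the groups in which it was high.

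The ER folding genes carried most of the rise, with 13 of 15 higher and a median log2 fold change of 0.65. Hspa5 encodes BiP, the ER chaperone that also holds the sensors inactive. Its level was 174, 225, 222 and 181 FPKM in the NormMg-LFD mice and 467, 344, 401, 333 and 267 FPKM in the NormMg-HFD mice. The groups did not overlap, and the log2 fold change came to 0.83 (SE 0.15, adjusted p = 0.000311). Calr encodes calreticulin, a lectin chaperone of glycoproteins. It was at 168, 185, 206 and 178 FPKM in NormMg-LFD and 396, 314, 392, 332 and 333 FPKM in NormMg-HFD mice. The lowest HFD mouse was above the highest LFD mouse, and the log2 fold change came to 0.93 (SE 0.11, adjusted p = 4.79e-06).

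Sdf2l1, an ER-resident partner of the co-chaperone ERdj3, had the largest rise of the folding genes. Its level was 6.61, 8.63, 7.68 and 12.5 FPKM in NormMg-LFD and 41.1, 22.7, 38.3, 22.6 and 18.99 FPKM in NormMg-HFD mice, with no overlap, and the log2 fold change came to 1.56 (SE 0.26, adjusted p = 8.98e-05). Dnajb11 encodes ERdj3 itself, a J-domain co-chaperone of BiP. It stood at 24.9, 22.4, 27.9 and 21.8 FPKM in NormMg-LFD and 46.7, 41.9, 50.2, 38.9 and 36.7 FPKM in NormMg-HFD mice, again without overlap, and the log2 fold change came to 0.80 (SE 0.11, adjusted p = 2.04e-05). Creld2, an ER-stress-induced protein with isomerase activity, was at 9.27, 9.42, 11.2 and 10.7 FPKM in NormMg-LFD and 24.7, 20.6, 24.04, 11.4 and 12.8 FPKM in NormMg-HFD mice. Replicates 4 and 5 of the NormMg-HFD group were only just above the LFD range, and the log2 fold change came to 0.76 (SE 0.22, adjusted p = 0.011).

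Pdia3, the isomerase that works with calreticulin and calnexin, was at 125, 135, 161 and 152 FPKM in NormMg-LFD and 276, 209.7, 279.6, 213 and 199 FPKM in NormMg-HFD mice, a log2 fold change of 0.71 without overlap. P4hb, a disulfide isomerase that is also a subunit of collagen prolyl hydroxylase, rose by 0.55, and Pdia6 rose by 0.52 on the same log2 scale. Hsp90b1, the ER form of Hsp90, rose by 0.56, from 134 ± 10.8 to 200.2 ± 30.99 FPKM. Manf, a secreted ER stress protein, rose by 0.67, and Hyou1, the nucleotide exchange factor of BiP, by 0.45. Canx, the membrane-bound relative of calreticulin, rose by 0.36. Dnajb9, the co-chaperone ERdj4, was at 14.8, 18.1, 21.1 and 15 FPKM in NormMg-LFD and 29.2, 28.6, 29.4, 24.02 and 25.8 FPKM in NormMg-HFD mice, and the log2 fold change came to 0.65 (SE 0.14, adjusted p = 0.00124). The other 2 folding genes did not pass the test: Pdia4 had a log2 fold change of 0.12 (95% CI −0.25 to 0.49) and Dnajc3, a co-chaperone that restrains PERK, one of 0.15 (−0.12 to 0.42).

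Of the 5 sensors and factors 4 were tested, and 2 of them rose, with a median log2 fold change of 0.31. Ern1 was low in every mouse, at 5.33, 4.32, 10.1 and 5.92 FPKM in NormMg-LFD and 6.89, 5.45, 5.68, 5.71 and 5.36 FPKM in NormMg-HFD mice, and the groups overlapped. Fitted without the filter it had a log2 fold change of −0.07. Eif2ak3 was at 6.41, 8.42, 8.92 and 6.01 FPKM in NormMg-LFD and 8.23, 9.38, 8.36, 10.4 and 7.82 FPKM in NormMg-HFD mice, with overlap, and a log2 fold change of 0.23 (95% CI −0.07 to 0.54). Atf6 did rise. It was at 8.31, 8.6, 11.1 and 9.86 FPKM in NormMg-LFD and 13.7, 11.6, 11.5, 13.1 and 13.2 FPKM in NormMg-HFD mice, with no overlap, and the log2 fold change came to 0.38 (SE 0.10, adjusted p = 0.00623).

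Xbp1 encodes the factor made after IRE1 splicing. Total Xbp1 mRNA was at 95.95, 117, 112 and 87.9 FPKM in NormMg-LFD and 99.3, 91.6, 111, 78.7 and 73.5 FPKM in NormMg-HFD mice, overlapping and with a log2 fold change of −0.19 (95% CI −0.53 to 0.15). Atf4 was at 40.7, 39.6, 61.3 and 38.3 FPKM in NormMg-LFD and 58.2, 60.7, 70.6, 60.3 and 58.01 FPKM in NormMg-HFD mice. NormMg-LFD replicate 4 reached the HFD range, and the log2 fold change came to 0.47 (SE 0.14, adjusted p = 0.0143). Without the library that held pancreas mRNA the adjusted p of Atf4 was 0.0511.

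Of the 4 tested outputs of the ATF4 arm 2 rose and 1 fell. Atf3, a stress-induced transcription factor of the ATF family that also responds to inflammatory signals, passed the filter through the HFD groups alone. It was at 2.86, 1.76, 3.64 and 5.28 FPKM in NormMg-LFD and 79.9, 48.3, 71.95, 65.5 and 43.3 FPKM in NormMg-HFD mice. The ranges lay far apart, and the log2 fold change came to 3.87 (SE 0.43, adjusted p = 2.35e-06). Atf3 and Sdf2l1, which missed the filter in NormMg-LFD, are both among the 20 rises. Ddit3, which encodes CHOP, was at 18.6, 17.7, 20.7 and 16.6 FPKM in NormMg-LFD and 37.7, 33.5, 33.8, 27.3 and 26.1 FPKM in NormMg-HFD mice, without overlap, and the log2 fold change came to 0.74 (SE 0.14, adjusted p = 0.00032). Asns, asparagine synthetase and a textbook ATF4 target, went the other way. It was at 30.7, 30.6, 26.5 and 29.5 FPKM in NormMg-LFD and 13.8, 15.6, 19.4, 13.5 and 12.2 FPKM in NormMg-HFD mice. Every HFD mouse was below every LFD mouse, and the log2 fold change came to −0.95 (SE 0.17, adjusted p = 0.000238). Sesn2, a stress-inducible regulator of mTORC1, did not pass the test, with a log2 fold change of 0.07 (95% CI −0.29 to 0.43). The 3 arm members under the filter were low, and without the filter Trib3 had a log2 fold change of −0.20, Chac1 one of 0.08 and Ppp1r15a, the phosphatase subunit that resets translation, one of −0.11.

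Of the 7 degradation genes tested 3 rose and 1 fell, with a median log2 fold change of 0.25. Edem1, a mannosidase-like lectin that hands misfolded glycoproteins to degradation, was at 55.8, 40.9, 28.7 and 36.3 FPKM in NormMg-LFD and 86.8, 70.7, 46.5, 76.8 and 68 FPKM in NormMg-HFD mice. The ranges overlapped through 1 mouse on each side, and the log2 fold change came to 0.78 (SE 0.20, adjusted p = 0.00454). Edem2 was at 16.1, 16.2, 18.03 and 17.1 FPKM in NormMg-LFD and 22.7, 22.8, 22.2, 22.3 and 22.5 FPKM in NormMg-HFD mice, a tight and separate pair of groups, and the log2 fold change came to 0.40 (SE 0.11, adjusted p = 0.00823). Derl1 and Derl2 are related subunits of the export channel and moved in opposite directions. Derl1 fell, from a range of 73.8 to 80.9 FPKM to one of 49.9 to 55.9 FPKM, and the log2 fold change came to −0.52 (SE 0.10, adjusted p = 0.0006). Derl2 rose from 25.3 to 30.3 FPKM to 37.1 to 46.5 FPKM, and the log2 fold change came to 0.50 (SE 0.10, adjusted p = 0.000409). The ligase Syvn1 had a log2 fold change of −0.03 and its cofactor Herpud1 one of −0.17, and neither passed. Sel1l, the adaptor of Syvn1, was at 33.6, 35.9, 36.9 and 36.6 FPKM in NormMg-LFD and 45.2, 44.6, 38.2, 45.1 and 40.3 FPKM in NormMg-HFD mice. These ranges did not overlap, yet Sel1l did not pass, and the log2 fold change came to 0.25 (SE 0.10, adjusted p = 0.0712). Derl3 was low, at 0.26 to 3.11 FPKM over all 19 mice.

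Without the library that held pancreas mRNA, 17 members rose and 2 fell, with Canx, Hyou1 and Atf4 no longer past the threshold. Of all 8370 genes tested there, 20.5% rose and 10.8% fell. Canx was also lost without NormMg-LFD replicate 5 or NormMg-HFD replicate 1, Hyou1 without NormMg-LFD replicate 2 or 5 or NormMg-HFD replicate 1 or 3, and Atf4 without NormMg-LFD replicate 5. Without the 4 libraries with the most spermatid mRNA 19 rose and 2 fell, with Edem1 lost (adjusted p = 0.0568), beside 25.8% and 10.6% of all genes. Without all 6 libraries, which leaves 1 NormMg-LFD mouse, fewer rises were called among the members and also among all genes. The calls of Canx, Hyou1, Creld2, Edem1, Edem2 and Derl2 were lost there. Macrophage markers were higher in this comparison for 8 of 9 genes and lower for 1, and their part in these changes was not tested.

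**Figure D2:**
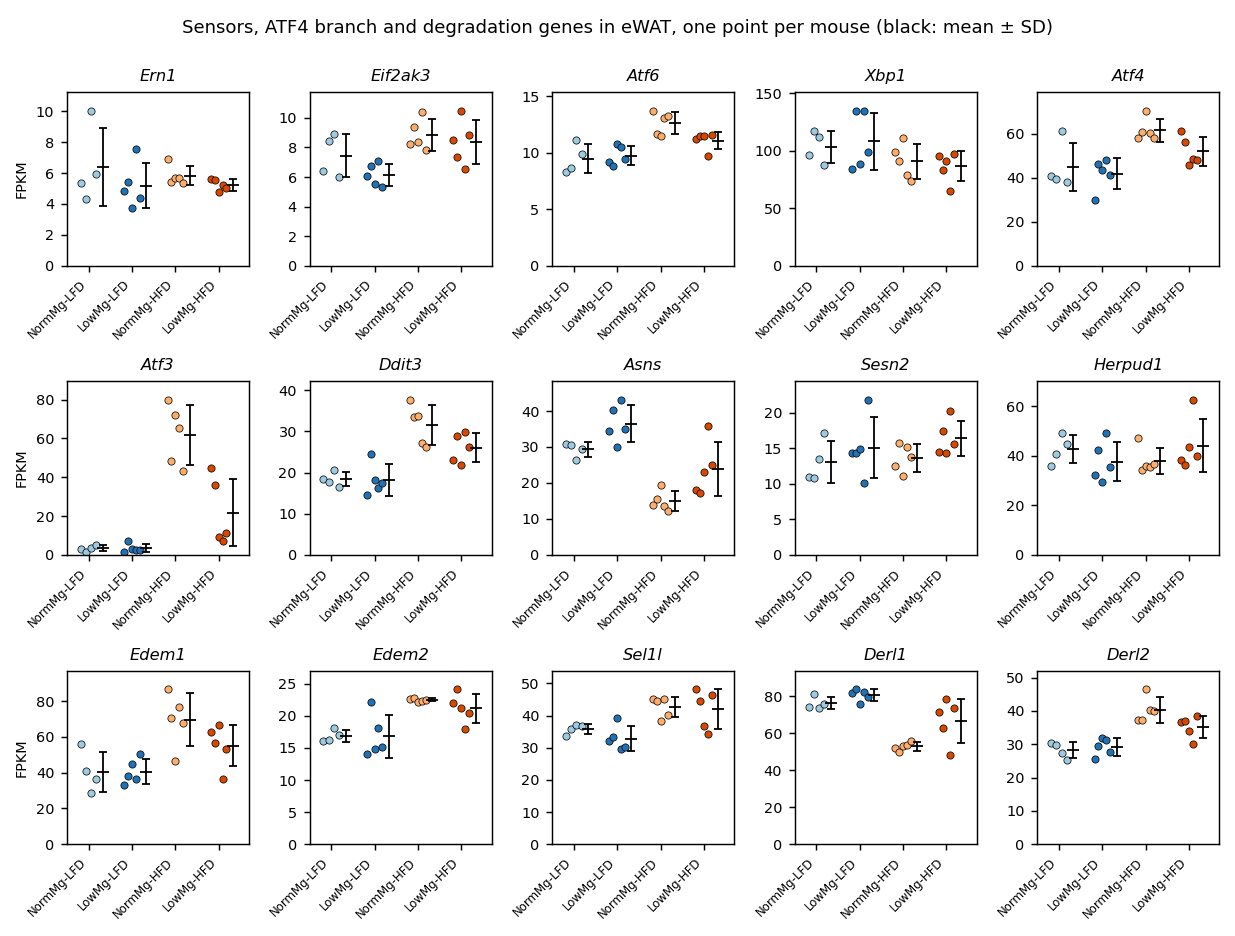
FPKM (linear axes from 0) of sensors, ATF4 arm genes and degradation genes, with 1 point per mouse in the 4 diet groups (n = 4, 5, 5 and 5) and the mean ± SD in black. Atf3 is near 0 in both LFD groups and high in every NormMg-HFD mouse, and in LowMg-HFD replicates 1 and 2 are at 44.6 and 35.9 while the other 3 mice are at 7.36 to 11.4; Asns and Derl1 show the opposite order of groups.

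The second comparison asked what low Mg2+ did under the HFD. Compared with NormMg-HFD mice, 9 of the 30 members were lower in LowMg-HFD mice and 2 were higher, whereas 12.9% of all genes tested were lower and 5.58% higher. With median centring of the libraries 8 members were lower and 2 higher, beside 10.2% and 7.79% of all genes. With quantile normalization 6 were lower and 2 higher, beside 10.5% and 9.43%. Without such scaling the median log2 fold change of the 30 was −0.28, beside −0.04 for all genes tested. A value below 0 was seen in 25 of the 30 and in 4708 of all 8336 genes. In 5 members (Hsp90b1, Calr, Pdia3, P4hb and Dnajb11) the highest LowMg-HFD mouse was below the lowest NormMg-HFD mouse, against 9.56% of all genes tested, and in 0 every one was above, against 3.2%. The NormMg-HFD mice serve in this comparison and in the one before, so a high or low value in them moves both in opposite directions.

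The falls were mostly in the folding genes, of which 8 of 15 were lower and 0 higher, with a median of −0.40. Calr was at 257, 274, 206, 225 and 222 FPKM in the LowMg-HFD mice, all below the NormMg-HFD values given above, and the log2 fold change came to −0.58 (SE 0.11, adjusted p = 0.00255). Hspa5 was at 249, 270.01, 203, 221 and 290.5 FPKM. LowMg-HFD replicates 2 and 5 were above the lowest NormMg-HFD mouse, and the log2 fold change came to −0.54 (SE 0.15, adjusted p = 0.015). Without NormMg-HFD replicate 1, the mouse with the highest Hspa5, the adjusted p was 0.0504. Dnajb11 was at 31.2, 31.5, 24.5, 26.5 and 30.8 FPKM in LowMg-HFD mice with no overlap, and the log2 fold change came to −0.55 (SE 0.11, adjusted p = 0.00275).

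Pdia3 was at 179, 177, 148, 164 and 165 FPKM in LowMg-HFD mice, with no overlap, and the log2 fold change came to −0.49 (SE 0.13, adjusted p = 0.0114). Sdf2l1 was at 19.1, 17.1, 11.97, 14.6 and 17.3 FPKM, with 1 mouse just inside the NormMg-HFD range, and the log2 fold change came to −0.76 (SE 0.24, adjusted p = 0.0354). Without the spermatid library the adjusted p of Sdf2l1 was 0.0625. Dnajb9 was at 16.3, 22.4, 16.6, 25.5 and 23.4 FPKM, with 1 mouse inside that range, and the log2 fold change came to −0.40 (SE 0.13, adjusted p = 0.0437). P4hb was lower by a log2 fold change of −0.39 and Hsp90b1 by one of −0.40, with group means of 200.2 ± 30.99 and 151 ± 8.37 FPKM for Hsp90b1. The 7 folding genes that did not pass had log2 fold changes from −0.09 (Dnajc3) to −0.44 (Manf), among them Creld2 at −0.31 with 11.7, 12.1, 13.1, 23.5 and 13.3 FPKM in LowMg-HFD mice. The high value in Creld2 came from the spermatid library.

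None of the 4 sensors and factors tested passed in this comparison. Eif2ak3 was at 8.53, 7.34, 10.5, 6.57 and 8.84 FPKM in LowMg-HFD mice, a log2 fold change of −0.08 from NormMg-HFD (95% CI −0.37 to 0.21). Atf6 was at 11.2, 11.4, 11.4, 9.72 and 11.6 FPKM, a log2 fold change of −0.17 (95% CI −0.38 to 0.03). Both intervals include 0. Xbp1 was at 95.1, 83.7, 91.5, 65.4 and 97.5 FPKM (−0.07, 95% CI −0.38 to 0.25), and Atf4 at 61.2, 56.3, 45.9, 48.4 and 48.2 FPKM (−0.24, 95% CI −0.53 to 0.04). Ern1 was at 5.6, 5.58, 4.76, 5.2 and 5.02 FPKM, inside the NormMg-HFD range or just below it, with a log2 fold change of −0.13 without the filter.

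Atf3 again had the largest change. It was at 44.6, 35.9, 9.19, 7.36 and 11.4 FPKM in LowMg-HFD mice, and the log2 fold change came to −1.78 (SE 0.41, adjusted p = 0.0059). Replicates 1 and 2 were within or close to the NormMg-HFD range and the other 3 mice were far below it. The 9 macrophage markers also averaged more in these mice, at 6.58 and 6.44 on the log2(FPKM + 1) scale in replicates 1 and 2 and at 5.49, 5.10 and 5.58 in replicates 3, 4 and 5. Among them Trem2, a marker of lipid-associated macrophages, was at 110.06 and 99.4 FPKM in replicates 1 and 2 and at 21.1, 21.7 and 25.3 FPKM in replicates 3, 4 and 5. Their part in the Atf3 values was not tested. Ddit3 was at 22.96, 28.9, 21.9, 29.8 and 26.3 FPKM in LowMg-HFD mice and did not pass, with a log2 fold change of −0.27 (95% CI −0.55 to 0.0013).

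Asns and Derl1 were the 2 members that were higher with low Mg2+ on the HFD. Asns was at 17.96, 17.3, 23.1, 35.9 and 25.01 FPKM in LowMg-HFD mice, and the log2 fold change came to 0.61 (SE 0.16, adjusted p = 0.0126). Replicates 1 and 2 lay inside the NormMg-HFD range and replicate 4, the spermatid library, was highest. Without that library Asns was still higher, with a log2 fold change of 0.46 (SE 0.14, adjusted p = 0.0279). Derl1 ranged from 48.1 to 78.3 FPKM in LowMg-HFD mice, lowest in the spermatid library, and the log2 fold change came to 0.31 (SE 0.10, adjusted p = 0.0319). The other degradation genes did not pass: Edem1 was at 62.9, 56.6, 66.5, 36.4 and 53.5 FPKM (−0.33), Edem2 at 22.01, 24.1, 21.2, 17.9 and 20.4 FPKM (−0.09), and Sel1l at 48.2, 44.6, 36.9, 34.2 and 46.4 FPKM (−0.03), where the bracketed values are log2 fold changes. Derl2 had a log2 fold change of −0.19, Syvn1 of 0.03, Herpud1 of 0.19 and Sesn2 of 0.25.

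Without both the pancreas and the spermatid library, 8 members were lower and 2 higher, beside 10.4% and 5.55% of all genes tested. Without the 4 libraries with the most spermatid mRNA 9 were lower and 2 higher, beside 13.1% and 6.7%. More members were also lower than higher without all 6 libraries that held mRNA of other tissues. With quantile normalization the calls of Hspa5, Hsp90b1 (adjusted p = 0.0678) and Dnajb9 were lost. Leaving out NormMg-HFD replicate 1 reduced the calls to 6 lower and 1 higher, and the share of all genes to 9.4% lower and 3.55% higher. Single mice also ended the call of Dnajb9 (NormMg-LFD replicate 3, NormMg-HFD replicates 1, 2 and 3, LowMg-HFD replicates 1 and 3), Sdf2l1 (NormMg-HFD replicates 1 and 3, LowMg-HFD replicates 3, 4 and 5) and Derl1 (NormMg-HFD replicates 1 to 4, LowMg-HFD replicates 1, 3 and 5). Of the macrophage markers 8 of 9 were lower in LowMg-HFD mice, of the fibroblast markers 3 of 6 were lower, and of the adipocyte markers 5 of 9 were higher. Their part in the folding genes was not tested.

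**Figure D3:**
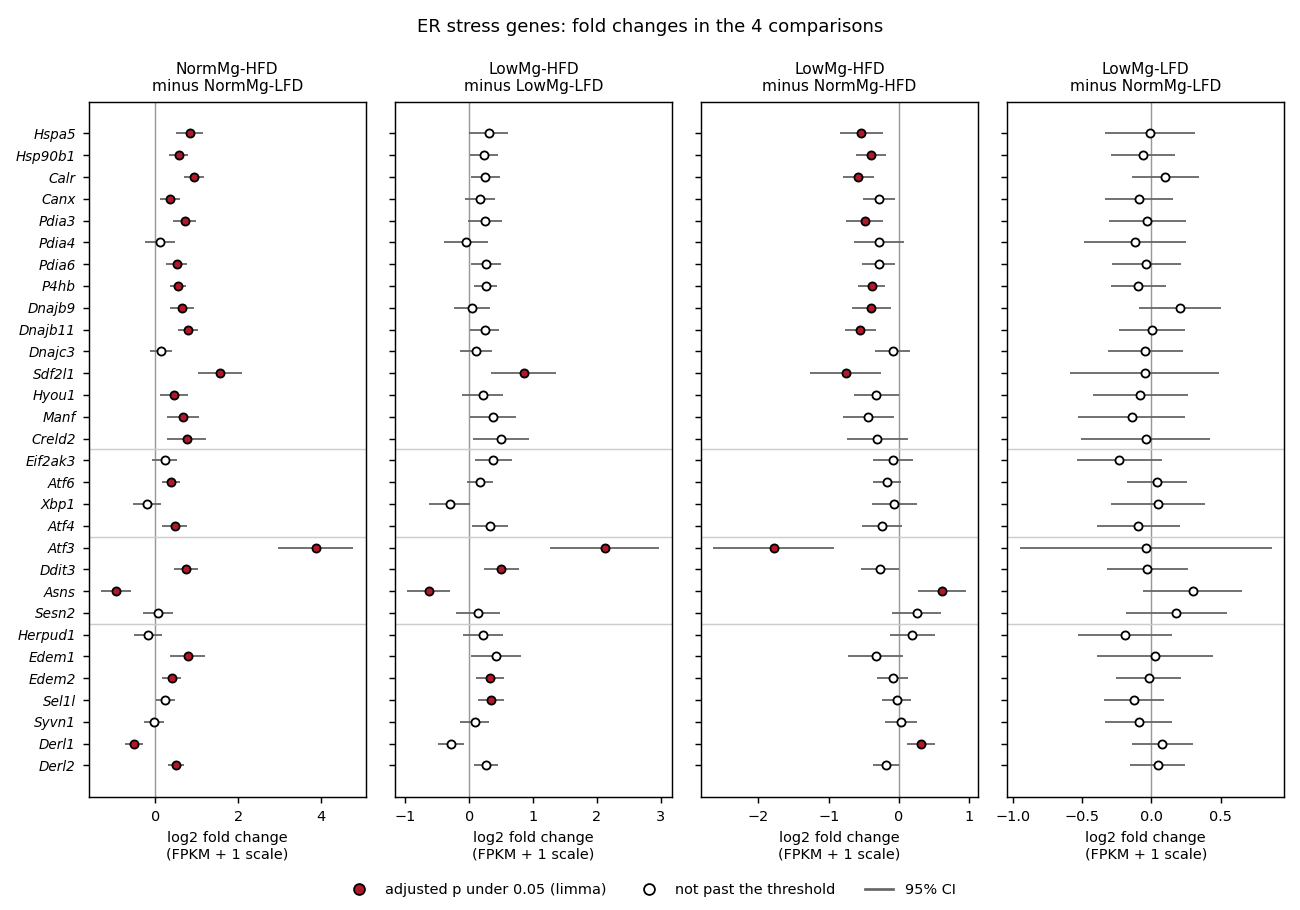
Log2 fold changes on the log2(FPKM + 1) scale of the 30 members tested in 4 comparisons, each panel with its own horizontal scale; bars are 95% confidence intervals, and red points passed an adjusted p of 0.05 (limma). The folding genes at the top lie right of 0 for the HFD at normal Mg2+ (13 of 15 passed) and left of 0 for low Mg2+ on the HFD (8 of 15 passed), and no member passed for low Mg2+ on the LFD.

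The third comparison asked what the HFD did at low Mg2+. Of the 30 members, 5 rose and 1 fell in LowMg-HFD compared with LowMg-LFD mice, while 12.4% of all genes tested rose and 3.51% fell, so that the members' count was near the background. The median log2 fold change was 0.25, beside 0.10 for all genes. With median centring or quantile normalization of the libraries the split was 3 rises and 2 falls, where 593 or 549 of all 8336 genes rose and 531 or 530 fell, and the members' median was 0.14 or 0.16, beside −0.01 or −0.02 for all genes. In 3 members (Sdf2l1, P4hb and Atf3) the groups were apart in the upward direction, against 6.99% of all genes tested, and in 0 in the downward direction, against 2.3%. Atf3 was at 1.76, 7.09, 3.14, 2.38 and 2.62 FPKM in LowMg-LFD mice, below all LowMg-HFD mice, and the log2 fold change came to 2.12 (SE 0.41, adjusted p = 0.00237). Sdf2l1 was at 4.1, 8.6, 9.24, 10.1 and 11.6 FPKM in LowMg-LFD mice, also below all LowMg-HFD mice, and the log2 fold change came to 0.85 (SE 0.24, adjusted p = 0.0214).

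Ddit3 was at 14.7, 24.6, 18.2, 16.2 and 17.4 FPKM in LowMg-LFD mice. Replicate 2 lay within the LowMg-HFD range, and the log2 fold change came to 0.50 (SE 0.13, adjusted p = 0.0137). Sel1l was at 31.97, 33.3, 39.1, 29.6 and 30.2 FPKM, overlapping with LowMg-HFD, and the log2 fold change came to 0.34 (SE 0.10, adjusted p = 0.0239). Edem2 was at 13.99, 22.1, 14.8, 18.04 and 15.2 FPKM, where replicates 2 and 4 lay in the HFD range, and the log2 fold change came to 0.33 (SE 0.10, adjusted p = 0.0399). Asns fell at low Mg2+ too: it was at 34.3, 40.2, 29.9, 43.1 and 35.01 FPKM in LowMg-LFD mice, and the log2 fold change came to −0.63 (SE 0.16, adjusted p = 0.0119).

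Of the 15 folding genes Sdf2l1 was the one that passed at low Mg2+. Log2 fold changes were above 0 for 14 of the 15 and for 5551 of all 8336 genes tested. Hspa5 was at 148, 191, 219, 219.6 and 222 FPKM in LowMg-LFD mice, with a log2 fold change to LowMg-HFD of 0.31 (95% CI −0.00021 to 0.61). Calr was at 163, 215, 172, 231 and 213 FPKM (0.26, 95% CI 0.03 to 0.48), Dnajb11 at 24.4, 25.7, 25.3, 26.3 and 19.9 FPKM (0.24), and Pdia3 at 106, 149.5, 135, 177 and 139.6 FPKM (0.25). Dnajb9 was at 20.7, 21.6, 19, 22.6 and 15.9 FPKM (0.05) and Creld2 at 8.02, 7.71, 10.8, 11.5 and 11.8 FPKM (0.50). These groups overlapped in each case. Among the sensors and factors, Eif2ak3 was at 6.07, 6.72, 5.51, 7.11 and 5.31 FPKM in LowMg-LFD mice (0.38), Atf6 at 9.19, 8.8, 10.8, 10.5 and 9.44 FPKM (0.17), and Atf4 at 30.1, 46.2, 43.4, 48.1 and 41.2 FPKM (0.32). None of the 3 passed. Xbp1 was at 84.1, 135, 88.5, 135 and 99 FPKM (−0.30), Ern1 at 4.82, 5.44, 3.71, 7.54 and 4.37 FPKM (0.04 without the filter), and Edem1 at 32.9, 38.3, 44.95, 36.2 and 50.2 FPKM (0.42). Without the spermatid library 9 members rose and 1 fell, where 1154 of 8278 genes rose and 314 fell. Without it, the pancreas and the epididymis library 7 rose and 1 fell, where 1099 of 8277 genes rose, and Ddit3 was lost (adjusted p = 0.0683). Without the 4 libraries with the most spermatid mRNA 4 rose and 1 fell, where 806 of 8299 genes rose, with the calls of Sdf2l1, Ddit3 and Edem2 lost and those of Eif2ak3 and Derl2 gained, and without all 6 libraries Atf3 rose and Asns fell, where 583 of 8498 genes rose. Fitted on the 2 groups alone, the fall of Asns did not pass (adjusted p = 0.0526). Leaving out LowMg-LFD replicate 1, LowMg-HFD replicate 1 or LowMg-HFD replicate 2 left 2 rises and 1 fall in each case, where 608 to 658 of all genes rose, and each of these 3 ended the calls of Sdf2l1, Sel1l and Edem2. Sel1l was also lost without LowMg-LFD replicate 4 or 5 or LowMg-HFD replicate 5, and Edem2 without LowMg-LFD replicate 3 or 5 or LowMg-HFD replicate 3 or 5. Of the macrophage markers 6 of 9 were higher in this comparison, and of the fibroblast markers 3 of 6. Of the 9 adipocyte markers 2 were lower and 1 higher. The part of these cells in the members' changes was not tested.

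Whether the HFD acted differently at low and normal Mg2+ was tested by the interaction. Calr alone passed, as 1 of 30 members lower and 0 higher, against 0.756% of all genes tested lower and 0.492% higher. The rise of Calr on the HFD was 0.93 at normal and 0.26 at low Mg2+ on the log2 scale, and the interaction came to −0.68 (SE 0.16, adjusted p = 0.046). Without the pancreas library the adjusted p was 0.0893, without the spermatid library 0.0582, without all 6 libraries 0.275, and in 22 of 31 alternative settings it missed the threshold. Dnajb11 had an interaction of −0.55 (adjusted p = 0.0624), Dnajb9 of −0.60 (adjusted p = 0.091) and Atf3 of −1.74 (adjusted p = 0.108), none of which passed. All 15 folding genes had an interaction below 0, with a median of −0.30. Of all 8336 genes 4075 were below 0, with a median of 0.01. The folding genes were read in the same mice, so their signs are not 15 separate tests. The difference in the number of members that rose at normal and at low Mg2+ was not itself tested.

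On the LFD, low Mg2+ changed no member past the threshold. By limma 0 of 30 were higher and 0 lower compared with NormMg-LFD mice, beside 0% and 0% of all genes tested, and at an unadjusted p under 0.05 there were 0 of the 30 members and 547 of all 8336 genes. The groups overlapped for all 30 members, whereas 0.48% of all genes tested were apart upwards and 1.31% downwards. The log2 fold changes of the members ran from −0.23 (Eif2ak3) to 0.30 (Asns), with a median of −0.04 beside −0.06 for all genes. The 95% interval was −0.33 to 0.31 for Hspa5, −0.14 to 0.34 for Calr and −0.29 to 0.17 for Hsp90b1. For Atf3 the interval was wide, at −0.95 to 0.87.

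Over the 4 groups, Hspa5 was the most abundant member per length at 201 ± 26.5 FPKM in NormMg-LFD, 200.02 ± 31.9 in LowMg-LFD, 362 ± 75.4 in NormMg-HFD and 247 ± 35.4 in LowMg-HFD mice. Calr followed with 184 ± 15.9, 199 ± 29.7, 353 ± 38.1 and 237 ± 27.8 FPKM. Hspa5 and Calr differed by less than 1 SD of Hspa5 in each of the 4 groups. Derl3 was the least abundant, at group means of 0.76, 0.97, 1.5 and 1.77 FPKM. Trib3 had group means of 5.78, 4.23, 5.04 and 4.68 FPKM, Chac1 of 3.49, 4.67, 3.82 and 4.09 and Ppp1r15a of 7.82, 6.75, 7.18 and 8.29, all in the order NormMg-LFD, LowMg-LFD, NormMg-HFD and LowMg-HFD. The sensors Ern1 and Eif2ak3 were also at low levels, with group means of 6.41, 5.18, 5.82 and 5.23 and 7.44, 6.14, 8.84 and 8.36 FPKM. The remaining members by the same order of groups were Pdia4 at 49.3, 45.8, 53.8 and 44.6, Dnajc3 at 26.4, 25.4, 29.1 and 27.4, Canx at 81.3, 76.8, 105 and 85.8 and Pdia6 at 73.4, 72.5, 106 and 86.4 FPKM. Hyou1 was at 20.3, 19.3, 28.7 and 22.3, Manf at 47.9, 44.1, 78.96 and 56.2, P4hb at 158, 148, 233 and 177 and Derl2 at 28.2, 29.2, 40.3 and 35.3 FPKM. Herpud1 was at 42.7, 37.8, 38.02 and 44.1, Syvn1 at 25.3, 23.7, 24.7 and 25.1 and Sesn2 at 13.04, 15.1, 13.6 and 16.4 FPKM.

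The promoter matches were set beside these calls as a description. Of the 9 genes with an ERSE match 8 were tested, and 6 of them rose on the HFD at normal Mg2+ with a median log2 fold change of 0.54, while of the 18 tested genes with a window but no such match 11 rose and 1 fell, with a median of 0.48. Of all genes tested 24.6% rose and 12.8% fell. For low Mg2+ on the HFD, 3 of the 8 and 6 of the 18 were lower, beside 12.9% of all genes tested. Of the 5 genes with the C/EBP-ATF element, Asns and Atf3 moved in opposite directions in 3 comparisons. Herpud1 passed in none, and Chac1 and Trib3 were not tested.

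Other genes of the ER were read beside the members. Of 97 such genes 83 were tested. On the HFD at normal Mg2+, 34 of the 83 rose and 5 fell, beside 24.6% and 12.8% of all genes tested, and the translocation and glycosylation genes made up 15 of the rises with 0 falls among 24 tested. Of the further folding and oxidation genes 7 of 17 rose and 1 fell, of the signalling genes 5 of 12 rose, and of the further degradation genes 3 of 14 rose. Wfs1, an ER membrane protein of calcium handling, rose by a log2 fold change of 1.74 and Cebpb, a transcription factor and partner of ATF4, by 1.15. Stc2, a secreted stanniocalcin, fell by 1.41 and Gpt2, a mitochondrial alanine aminotransferase, by 1.41 on that scale. Wfs1 passed the expression filter only through the HFD groups, at 6.91 to 10.6 FPKM in NormMg-LFD mice, and Stc2 only through the LFD groups, at 2.89 to 4.91 FPKM in NormMg-HFD and 5.2 to 9.67 FPKM in LowMg-HFD mice, so each could be tested because of the groups in which it was high. In LowMg-HFD compared with NormMg-HFD mice, 18 of the 83 were lower and 4 higher, beside 12.9% and 5.58% of all genes tested. By list, 9 of 24 translocation and glycosylation genes, 6 of 17 folding and oxidation genes, 2 of 12 signalling genes, 1 of 16 ATF4 targets and 0 of 14 degradation genes were lower. The lowest were Wfs1 (−0.97), the oligosaccharyltransferase subunit Ostc (−0.69) and the signal peptidase subunit Sec11c (−0.67), and the highest were Stc2 (0.78), Gpt2 (0.64) and the serine synthesis enzyme Phgdh (0.62), each as a log2 fold change.

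Wfs1 was at 26.1 and 24.1 FPKM in replicates 1 and 2 and at 9.07, 8.35 and 14.2 FPKM in the other 3 LowMg-HFD mice, and at 23.1 to 34.1 FPKM in NormMg-HFD mice. Of 16 further ATF4 targets tested, 4 rose and 4 fell on the HFD at normal Mg2+, beside 24.6% and 12.8% of all genes tested, so that the share of rises was near the background. Gpt2, Stc2 and Phgdh were among the falls. At low Mg2+ 10 of the 83 rose and 1 fell on the HFD, beside 12.4% and 3.51% of all genes tested, so the count of rises was near the background, with rises of 0.92 for Ddit4 and 0.90 for Vldlr and a fall of 0.78 for Gpt2. On the LFD, low Mg2+ changed 0 of the 83 by limma, with 4 at an unadjusted p under 0.05 beside 547 of all 8336 genes. In the interaction 0 of the 83 passed, with 14 at an unadjusted p under 0.05 beside 1698 of all 8336 genes.

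Neighbouring stress programmes were read in the same way. Of 12 immediate-early genes, which respond to handling as well as to signals, 9 were tested. Of these 3 rose on the HFD at normal Mg2+, 3 rose at low Mg2+, and 2 were lower with low Mg2+ on the HFD, beside 24.6%, 12.4% and 12.9% of all genes tested. Their mean log2(FPKM + 1) was 3.51 ± 0.29, 3.16 ± 0.16, 3.88 ± 0.25 and 3.74 ± 0.19 in the 4 groups. As with Atf3, a gene of this list could be tested because of the groups in which it was high, which limits these calls. Of 10 cytosolic heat shock genes 8 were tested, and 3 rose on the HFD at normal Mg2+, beside the same 24.6% of all genes, with 0 called in the 3 other diet comparisons.

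**Figure D4:**
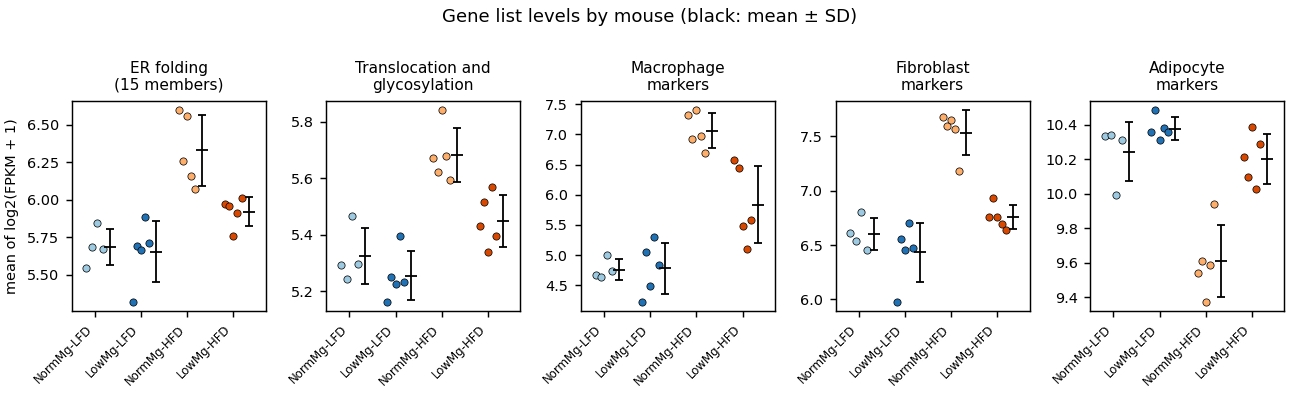
Mean log2(FPKM + 1) per mouse (axes do not start at 0) of the 15 ER folding genes, 25 translocation and glycosylation genes, 9 macrophage, 6 fibroblast and 9 adipocyte markers in the 4 diet groups (n = 4, 5, 5 and 5), with the mean ± SD in black. The folding genes averaged 5.68, 5.65, 6.33 and 5.92 in NormMg-LFD, LowMg-LFD, NormMg-HFD and LowMg-HFD mice, the macrophage and fibroblast markers were also highest in NormMg-HFD, and the adipocyte markers were lowest there.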

How the data were processed

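RNA of eWAT was sequenced by the study as single-end reads of 50 bases. The authors' processing, per their methods and processing notes, used HISAT, Bowtie2 and RSEM 1.2.31 with the GRCm38/mm10 genome, and the deposited values are FPKM per gene. The deposited mapping table gives the read count of each library and the percent of reads mapped. FPKM values are not counts, so no count model was used. The study left 1 LowMg-HFD sample out of its analyses; the labels do not say which, and all 19 libraries were used here.

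Of 24238 genes listed, 1 had a value that was not a number and was left out, and 12 broken lines were not genes. Genes with a group mean over 8 FPKM and at least 4 mice of that group over 8 were kept (8336). Values were analysed as log2(FPKM + 1) with limma 3.58.1 in R 4.3.3 (1 model of 4 group means, empirical Bayes with an intensity trend, 5 contrasts), and p-values were adjusted over all 8336 genes by Benjamini-Hochberg with a threshold of 0.05. A pseudocount understates the fold change of low genes. The fit was tested on simulated data. Groups and replicate numbers came from the labels, which do not name cages or batches. The members and gene lists were chosen with earlier results of these data known. Genes named with the value of every mouse were the 6 genes Ern1, Eif2ak3, Atf6, Xbp1, Atf4 and Ddit3 and, per comparison, the members past the threshold, or the 8 with the largest change where more passed. Other ER genes named were at most 3 rises and 3 falls for low Mg2+ on the HFD and 2 of each elsewhere. The 32 other settings tried covered the pseudocount, the filter, scaling, the groups fitted, the intensity trend, a replicate block and leaving out mice. Promoter windows were taken from RefSeq (GRCm38.p6).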

Additional observations from a re-analysis of the deposited data

Results flagged for a closer look

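Single mice stood far from the rest of their group in 9 of 140 member and group combinations, where chance alone gives about 1 in 20. Creld2 was highest at 23.47 FPKM and Atf6 lowest at 9.72 FPKM in LowMg-HFD replicate 4, the library with the most spermatid mRNA. Dnajb11 was lowest at 19.87 FPKM in LowMg-LFD replicate 5, and Syvn1 highest at 29.11 FPKM in LowMg-LFD replicate 3. Ern1 at 6.89 FPKM and Herpud1 at 47.37 FPKM were highest in NormMg-HFD replicate 1. Atf4 was highest at 61.33 FPKM in NormMg-LFD replicate 4 and at 70.62 FPKM in NormMg-HFD replicate 3, and Chac1 at 7.16 FPKM in LowMg-HFD replicate 2.

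Among gene lists and library measures 15 of 80 combinations had such a mouse, given as mean log2(FPKM + 1). NormMg-LFD replicate 4 was highest for the sensors and factors (4.63) and the other signalling genes (4.34) and lowest for adipocyte markers (9.99). NormMg-LFD replicate 3 was highest for exocrine pancreas markers (6.91). LowMg-LFD replicate 1 was lowest for the further ATF4 targets (3.91), LowMg-LFD replicate 3 lowest for B and plasma cell markers (1.15), and NormMg-HFD replicate 5 lowest for fibroblast markers (7.18). Epididymis markers were highest in LowMg-LFD replicate 4 (3.05) and, within LowMg-HFD, in replicate 4 (0.50). Immediate-early genes were highest in NormMg-HFD replicate 3 (4.32) and lowest in LowMg-HFD replicate 5 (3.40). Spermatid genes were highest in LowMg-HFD replicate 4 (8.40) and, within NormMg-HFD, in replicate 3 (1.61). The number of genes at or above 1 FPKM was highest at 15729 in LowMg-HFD replicate 4 and at 13702 in NormMg-HFD replicate 2.

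The effect of the HFD on Calr differed between normal and low Mg2+ by the interaction test of limma, with a value of −0.68 on the log2 scale (adjusted p = 0.046), and this call was lost in 22 of 31 alternative settings, where the adjusted p reached 0.275.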

How the results depend on the processing

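No call on an ER stress gene changed direction in any setting, and 15 of 22 calls for the HFD at normal Mg2+, 6 of 11 for low Mg2+ on the HFD, 1 of 6 for the HFD at low Mg2+ and 0 of 1 for the interaction passed in every setting. The cause of the following moves was not tested. The interaction count of 1 became 0 with a pseudocount of 0.1, with the filter at 1 FPKM, with no filter, with log2(FPKM + 1) over 3 and without LowMg-HFD replicate 4, without the intensity trend, with the replicate block, and without 2, 3, 4 or 6 libraries that held mRNA of other tissues (settings chosen after seeing the data). It became 2 with median centring and with quantile normalization, and leaving out single mice gave 0 to 3. Interaction calls over all genes moved too, from 41 higher and 63 lower to 15 and 9 with a pseudocount of 0.1. They became 23 and 25 with the filter at 1 FPKM and 1 and 1 with no filter. With the replicate block, and without 2, 3 or 4 libraries, they became 0 and 0. Median centring gave 86 and 159, and quantile normalization 139 and 208. For the HFD at low Mg2+ the 6 calls became 10 with log2(FPKM + 1) over 3 without LowMg-HFD replicate 4 3 when only the groups compared were fitted and 2 without 6 libraries, and single mice left out gave 3 to 10. They gave 7 to 13 for low Mg2+ on the HFD (7 without NormMg-HFD replicate 1), 19 to 23 for the HFD at normal Mg2+ and 0 for low Mg2+ on the LFD. Replicate numbers did not pair mice: over 27 same-number pairs the correlation of deviations ran from −0.18 to 0.34 with 5 over 0.1, and 3 libraries correlated best with their own number. With the replicate block, 22, 9, 6, 0 and 0 members passed for the HFD at normal Mg2+, low Mg2+ on the HFD, the HFD at low Mg2+, low Mg2+ on the LFD and the interaction. Of all genes, 24.3% rose and 12% fell there for the HFD at normal Mg2+, and 11.8% and 3.39% at low Mg2+. For low Mg2+ on the HFD 5.66% were higher and 11.9% lower, with 0 genes called on the LFD or in the interaction. Median centring moved the median of all genes by −0.10 for the HFD at normal Mg2+ and −0.11 at low Mg2+, and quantile normalization by −0.12 in both. Both scalings left 18 rises and 2 falls at normal Mg2+ and 3 rises and 2 falls at low Mg2+. Of all genes, 19% rose and 18.9% fell at normal Mg2+ with median centring, and 18% and 20.3% with quantile normalization. At low Mg2+ these shares were 7.11% and 6.37%, and 6.59% and 6.36%. For low Mg2+ on the HFD median centring left 2 higher and 8 lower, beside 7.79% and 10.2% of all genes. Quantile normalization left 2 higher and 6 lower, beside 9.43% and 10.5%. Read counts per gene were not analysed here, so the counting error of low genes such as Derl3, Chac1 and Trib3 is unknown.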
